A study of Nomascus leucogenys and Hoolock leuconedys and Nomascus gabriellae with 23 samples.

Results

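Ubiquitin ligase, conjugating enzyme and deubiquitinase genes were examined for insertions of LAVA, a composite retrotransposon of gibbons that is assembled from parts of other repeats. Members were rows of the deposited insertion table whose gene name began with USP, UBE, UBR, TRIM, FBXO, FBXL, FBXW, RNF, HERC, KLHL or CUL and a digit, without a hyphen and leaving out USP32. This gave 64 sites in 52 genes, out of 3143 sites with a gene name and 5490 sites in all. The rule left out 6 USP32 sites and 4 sites of 3 hyphenated names. The measurement was a call, for each site and animal, of whether LAVA was carried, made by the authors from sequencing of randomly sheared blood DNA. The 23 gibbons were 11 Nomascus leucogenys, 2 N. gabriellae, 2 Hylobates moloch, 1 H. muelleri, 1 H. lar, 1 H. pileatus, 3 Hoolock leuconedys and 2 Symphalangus syndactylus. The labels name no treatment, age, sex or kinship, so carriers of a genus may be relatives. Read depth behind the calls is unknown, and every listed site had at least 2 carriers.

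Ubiquitin is joined to proteins by a relay of an activating enzyme (E1), a conjugating enzyme (E2) and a ligase (E3) that picks the target. RING ligases, among them many of the RNF and TRIM families, bring the loaded E2 to the target. HECT ligases such as the HERC family instead first take ubiquitin onto themselves. Cullin ligases are modular, with a cullin scaffold and an exchangeable receptor, which is an F-box protein in the complexes built on CUL1 and a BTB protein, such as a KLHL protein, in those built on CUL3. Deubiquitinases of the USP family remove ubiquitin again. The name rule also took genes that differ in function from their family. USP6NL encodes a GTPase-activating protein of Rab proteins and no protease, and RNF17 encodes a Tudor-domain protein of germ cells known from mouse spermatogenesis.

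LAVA at these sites was either carried by all sampled gibbons or of restricted occurrence. At 16 of the 64 sites all 23 animals were carriers, at 30 sites the carriers belonged to 1 genus, and the remaining 18 sites had carriers in more than 1 genus without including every animal. Sites took 2 forms in the table. At 17 sites the position spanned the whole element (interval sites), and at 47 it was a single base (single-base sites). All 16 sites with 23 carriers were interval sites, and the remaining interval site was that of TRIM26. No single-base member site was carried by all animals (0 of 47), against 5 of 2469 other single-base sites with a gene name (0.203%). Among interval sites the share was 16 of 17 (94.1%), against 498 of 610 others with a gene name (81.6%). Across the forms it was 16 of 64 (25%), against 503 of 3079 (16.3%). These shares were not tested. Neither the labels nor the table say how the 2 forms were found.

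**Figure D1:**
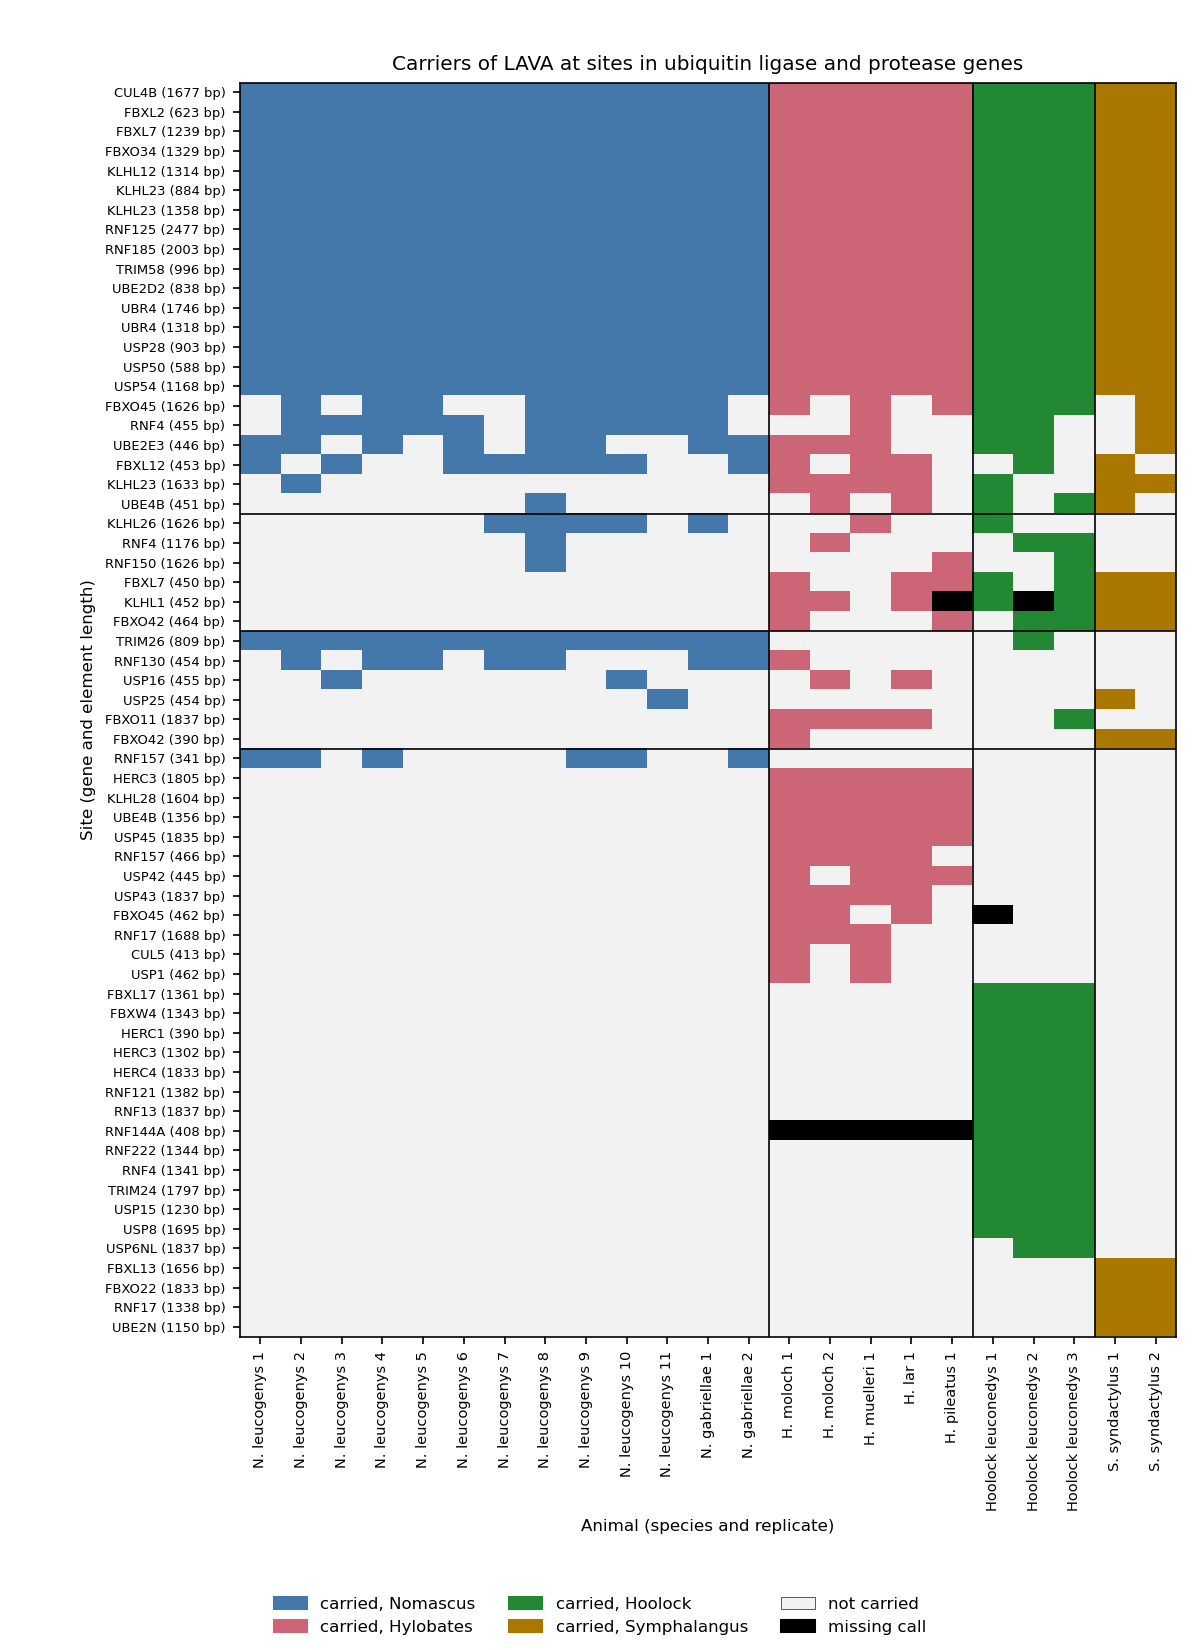
Carriers at the 64 member sites (rows, with gene and element length in bp) in the 23 animals (columns). Colour marks a carrier by genus, pale grey no insertion and black a missing call, and horizontal lines part the sites carried in 4, 3, 2 and 1 genera. The 16 sites at the top are carried by every animal, and the 30 at the bottom by animals of 1 genus.

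Among conjugating enzymes, 3 genes held 1 site each, all intronic and antisense to the gene. UBE2D2, which serves many RING ligases, had an interval site of 838 bp carried by all 23 animals on chromosome 2 from 41749366 to 41750203. UBE2E3 had a site of 446 bp on chromosome 22a at 71056372, carried by 8 of 13 Nomascus, 3 of 5 Hylobates, 2 of 3 Hoolock and 1 of 2 Symphalangus. It was thus carried in every genus and by all animals of none. UBE2N, the E2 that builds signalling chains of ubiquitin with a UBE2V partner, had a site of 1150 bp on chromosome 10 at 12150830 carried by both Symphalangus animals and no other. Positions follow the coordinates of the authors' table, with the first base of a chromosome as 1, and its genome build is not stated in the labels or the table.

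Both cullin genes had 1 intronic site. CUL4B, a scaffold encoded on the X chromosome, had an interval site of 1677 bp, antisense, carried by all 23 animals (chromosome X, 107437855 to 107439531). CUL5, the scaffold that works with SOCS-box receptors, had a site of 413 bp in sense orientation on chromosome 15 at 27623453. Its carriers were H. moloch replicate 1 and H. muelleri replicate 1, and the other 21 animals were called without it.

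F-box genes held 14 sites in 11 genes. The interval sites of FBXL2 (623 bp), FBXL7 (1239 bp) and FBXO34 (1329 bp) were carried by all 23 animals, and 5 further sites by 1 genus. FBXL17, a receptor in quality control of BTB proteins, and FBXW4 each had a site carried by the 3 Hoolock alone, of 1361 bp and 1343 bp. FBXL13 (1656 bp) and FBXO22 (1833 bp) each had a site carried by the 2 Symphalangus alone. All 4 lay antisense in introns.

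The other F-box sites were shared across genera by part of their animals. FBXL7 had a 450 bp site, 153.344 kb from its interval site, with 0 of 13 Nomascus, 3 of 5 Hylobates, 2 of 3 Hoolock and 2 of 2 Symphalangus. FBXO42 had a 464 bp site in sense orientation (chromosome 24, 17665300) with 0, 2, 2 and 2 carriers in the same order. Both sites had carriers in every genus except Nomascus. A further FBXO42 site of 390 bp lay 2.419 kb away in antisense orientation and was carried by H. moloch replicate 1 and both Symphalangus.

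FBXO45, an F-box protein that pairs with the ligase MYCBP2, had 2 intronic sites 1.749 kb apart on chromosome 11. The 1626 bp site at 121741112 lay in sense orientation and was carried by 8 of 13 Nomascus, 3 of 5 Hylobates, 3 of 3 Hoolock and 1 of 2 Symphalangus. The 462 bp site at 121742861 lay antisense and was carried by 3 Hylobates, both H. moloch and H. lar, with the call of Hoolock replicate 1 missing. FBXO11, whose known targets include the repressor BCL6, had a full-length 1837 bp site in sense orientation carried by 4 Hylobates and Hoolock replicate 3. H. pileatus was the Hylobates animal without it. FBXL12 had a 453 bp site of the promoter class with 8, 3, 1 and 1 carriers in Nomascus, Hylobates, Hoolock and Symphalangus.

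KLHL genes, adaptors of CUL3 ligases, held 7 sites in 5 genes, all intronic. KLHL23 had the most, 3 sites on chromosome 22a, and was the only member name not found in the RefSeq gene table of Asia_NLE_v1. Its 884 bp site (antisense) and 1358 bp site (sense) were interval sites carried by all 23 animals. Between them lay a 1633 bp single-base site with 1 Nomascus, 4 Hylobates, 1 Hoolock and 2 Symphalangus carriers.

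KLHL12, which acts on the coat of vesicles leaving the endoplasmic reticulum, had an interval site of 1314 bp carried by all animals. KLHL28 had a 1604 bp site carried by the 5 Hylobates and no other animal (chromosome 1a, 118538217, antisense). KLHL1 had a 452 bp site with carriers in 0 Nomascus, 3 Hylobates, 2 Hoolock and 2 Symphalangus, where the calls of H. pileatus and Hoolock replicate 2 were missing. Every animal outside Nomascus with a call at that site carried it, except H. muelleri. KLHL26 had a 1626 bp site with 5, 1, 1 and 0 carriers in Nomascus, Hylobates, Hoolock and Symphalangus.

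Ligases of the RNF, TRIM, HERC, UBR and UBE4 names held the most sites, 26 in 19 genes. Carriers at 15 of these sites belonged to 1 genus, 9 to Hoolock, 4 to Hylobates and 1 each to Nomascus and Symphalangus. Among the other sites with a gene name outside the members, 51.9% were carried in 1 genus. By genus, 20.1% were in Hoolock alone, 15.1% in Hylobates alone, 6.20% in Nomascus alone and 10.5% in Symphalangus alone. These shares were not tested. The 5 ligase sites carried by all 23 animals were in UBR4 (2 sites), RNF125, RNF185 and TRIM58.

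UBR4, a very large ligase that reads destabilising protein ends, had interval sites of 1746 bp and 1318 bp 51.302 kb apart on chromosome 24, both antisense. RNF125, a regulator of antiviral sensors, held the longest member element, 2477 bp in sense orientation. RNF185, a ligase of the endoplasmic reticulum, held the next longest, 2003 bp antisense. TRIM58, known from red cell precursors of the mouse, held an antisense element of 996 bp. These 5 sites did not differ between animals.

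The 4 HERC sites were all single-base and each carried in 1 genus, as were 64.5% of other single-base sites with a gene name. HERC3 had a site of 1805 bp carried by all 5 Hylobates and another of 1302 bp carried by all 3 Hoolock, each absent from the rest. The sites lay 153.247 kb apart on chromosome 9, both in sense orientation, under different transcripts. HERC1, a giant member of the family, had a 390 bp site and HERC4 a site of 1833 bp, both antisense and both carried by the 3 Hoolock alone.

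RNF4, the ligase that recognises SUMO chains, had 3 intronic sites on chromosome 20, all antisense. The 1341 bp site at 82819737 was carried by the 3 Hoolock alone. The 455 bp site at 82836560 was carried by 10 of 13 Nomascus, 1 of 5 Hylobates, 2 of 3 Hoolock and 1 of 2 Symphalangus. The 1176 bp site at 82850833 had 1 Nomascus, 1 Hylobates and 2 Hoolock carriers. The 3 sites of this gene therefore had 3 different sets of carriers.

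Other RNF genes gave the remaining Hoolock-only ligase sites. These were RNF13, a membrane protein of endosomes (1837 bp), RNF121 (1382 bp), RNF144A (408 bp) and RNF222 (1344 bp, promoter class), to which TRIM24, a bromodomain ligase of p53, added 1 of 1797 bp. All 5 were antisense and carried by the 3 Hoolock. At RNF144A the calls of all 5 Hylobates were missing, so absence from Hylobates was not measured there.

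RNF157 had a 341 bp sense site carried by 6 of 13 Nomascus, the only member site restricted to that genus, and 11.42 kb away a 466 bp antisense site carried by 4 Hylobates. RNF17 had a 1688 bp site carried by both H. moloch and H. muelleri and, 63.456 kb away, a 1338 bp site carried by both Symphalangus. UBE4B, a U-box ligase that extends ubiquitin chains, had a 1356 bp sense site carried by all 5 Hylobates alone (chromosome 24, 9979077). Its other site, 451 bp antisense and 41.159 kb away, had 1, 2, 2 and 1 carriers in Nomascus, Hylobates, Hoolock and Symphalangus. RNF130 had 7 Nomascus carriers and 1 Hylobates carrier, and RNF150 had 1 carrier each in Nomascus, Hylobates and Hoolock.

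TRIM26, a RING ligase gene, was the exception among interval sites. Its 809 bp element of the promoter class, in sense orientation, lay on chromosome 1a from 75026029 to 75026837. It was carried by 13 of 13 Nomascus, 0 of 5 Hylobates, 1 of 3 Hoolock (replicate 2) and 0 of 2 Symphalangus. Of the 51 member names found in the RefSeq gene table of Asia_NLE_v1, 50 lay on a chromosome of the same name there, and TRIM26 was the exception.

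Deubiquitinase names held 12 sites in 12 genes. The 3 sites carried by all 23 animals were antisense interval sites in USP28 (903 bp), a stabiliser of MYC, USP50 (588 bp) and USP54 (1168 bp). Hylobates alone carried those of USP45 (1835 bp, all 5 animals), USP43 (1837 bp, 4 animals), USP42 (445 bp, 4 animals) and USP1 (462 bp, 2 animals). USP1 removes ubiquitin from FANCD2 and PCNA, and its carriers were H. moloch replicate 1 and H. muelleri. These were the carriers of the CUL5 site as well.

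Hoolock alone carried the sites of USP15 (1230 bp, antisense), USP8 (1695 bp, promoter class, sense) and USP6NL (1837 bp). The first 2 of these were carried by all 3 animals, and USP6NL by replicates 2 and 3. USP8 acts on receptors at endosomes, and USP15 acts in TGF-beta signalling. USP50 and USP8 were neighbouring protein-coding genes in the RefSeq table, and their sites lay 97.212 kb apart on chromosome 6. USP16, a deubiquitinase of histone H2A, had 2 carriers each in Nomascus and Hylobates (455 bp), and USP25 had 1 each in Nomascus and Symphalangus (454 bp).

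The comparison of genera asked, site by site, whether carriers were more or less frequent in 1 genus than in all other animals. Of the 64 member sites, 31 (48.4%) were called in at least 1 of the 4 comparisons, against 46.7% of all 5490 sites. Two-sided Fisher's exact tests were adjusted by the Benjamini-Hochberg method over all 5490 sites, at a threshold of 0.05. The 4 comparisons use the same 23 animals and are not independent. Each test also treats the animals as independent, although animals of a genus may be relatives, so its p may be too small.

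In Hoolock, 13 of 64 member sites (20.3%) were more frequent, against 18.7% of all sites, and 0 were less frequent (0 also at an unadjusted p under 0.05), against 0.182% of all sites. They are the sites of FBXL17, FBXW4, HERC1, HERC3, HERC4, RNF4, RNF13, RNF121, RNF144A, RNF222, TRIM24, USP8 and USP15, each carried by 3 of 3 Hoolock and by none of the 20 other animals. Missing calls counted as not carried, which for RNF144A covers all 5 Hylobates, and when sites with a missing call were left out RNF144A was not tested and 12 of the sites were called. All have the same Fisher's exact test, with p = 0.000565 and an adjusted p = 0.00326. The Hoolock-only site of USP6NL, with 2 of 3 carriers, did not pass (Fisher's exact test, adjusted p = 0.0512). It was called with single-base sites only, with sites of at least 540 bp only, and without Hoolock replicate 1.

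In Hylobates, 10 sites (15.6%) were more frequent, against 11.5% of all sites. KLHL28, HERC3, UBE4B and USP45 had 5 of 5 carriers and 0 of 18 others (Fisher's exact test, adjusted p = 0.000841). USP42, USP43 and RNF157 had 4 of 5 and 0 of 18 (Fisher's exact test, adjusted p = 0.00924). FBXO11, with 1 Hoolock carrier in addition, gave an adjusted p of 0.0353 by Fisher's exact test. It was not called without any 1 of its 4 Hylobates carriers. The 3-carrier sites of FBXO45 and RNF17 passed narrowly (Fisher's exact test, adjusted p = 0.0458), and without any 1 of the 13 Nomascus animals 8 sites passed in place of 10, without these 2. FBXO45, which had 1 missing call in Hoolock, was not called when missing calls were left out of the test.

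The 1 site less frequent in Hylobates (1.56%, against 0.856% of all sites) was that of TRIM26 (0 of 5 against 14 of 18, Fisher's exact test, adjusted p = 0.045). That call was lost when any 1 Nomascus or Hylobates animal was left out.

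In Symphalangus, 4 sites (6.25%) were more frequent, against 9.58% of all sites, and 0 were less frequent (0 also at an unadjusted p under 0.05), against 0.0364% of all sites. UBE2N, FBXL13, FBXO22 and RNF17 each had 2 of 2 carriers and 0 of 21 others (Fisher's exact test, adjusted p = 0.0411). When either Symphalangus animal was left out, the remaining animal was too few for any site to pass. That setting therefore says nothing about these 4 sites.

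In Nomascus, 1 site (1.56%) was more frequent, against 3.01% of all sites, and 3 (4.69%) were less frequent, against 4.79%. The former was TRIM26, with 13 of 13 against 1 of 10 (Fisher's exact test, adjusted p = 0.000542). The latter were the short sites of FBXL7 and KLHL1, each with 0 of 13 against 7 of 10, where KLHL1 had 2 missing calls among the 10 and was not tested when such sites were left out (Fisher's exact test, adjusted p = 0.00824), and of FBXO42, with 0 of 13 against 6 of 10 (Fisher's exact test, adjusted p = 0.0279). All 3 elements were 450 to 464 bp long. Leaving out any 1 Hoolock or Symphalangus animal raised the number of less frequent sites to 8 or 9. The added sites included those of HERC3, KLHL28, UBE4B and USP45, which were carried in Hylobates alone. The FBXO42 site was not called without H. moloch replicate 1 or without H. pileatus, which are its Hylobates carriers. The 1633 bp site of KLHL23 was added without N. leucogenys replicate 2, H. pileatus, or Hoolock replicate 2 or 3. For HERC3, KLHL28, UBE4B and USP45 the adjusted p of 0.0545 lay just above the threshold with all 23 animals (Fisher's exact test).

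The elements at single-base sites all ran to position 1838 or 1839 of the LAVA consensus and differed in where they began. Their listed length equals the stretch of consensus at every such member site, so the 2 are a single measure. Elements that began within the first 50 bp made up 9 of 47 (19.1%), against 23.1% of the 2469 other single-base sites with a gene name. These are the near full-length elements of FBXO11, RNF13, USP43, USP6NL, USP45, FBXO22, HERC4, HERC3 and TRIM24, and 8 of the 9 were carried in 1 genus. The 571 other single-base sites with a gene name and such a start included 243 carried in Hoolock alone and 121 in Symphalangus alone. A further 93 were carried in Hylobates alone and 36 in Nomascus alone. Most of these other sites were thus carried in 1 genus as well.

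At the other end, 19 of 47 (40.4%, exact 95% interval 26.4 to 55.7) began beyond position 1300, against 36.5% of the other sites. Of these short elements 11 of 19 (57.9%) were carried in more than 1 genus, against 6 of 28 (21.4%) of the longer single-base elements. Among other named sites the shares were 52.8% and 25.6%, so the same contrast held outside the members. Starts after position 450 and up to 700 made up 11 of 47 (23.4%, exact 95% interval 12.3 to 38.0), against 12.2% of the other sites, and starts between there and position 1300 made up 0 of 47 (exact upper limit 7.55%), against 8.71%. Both of these shares of other sites lay outside the members' intervals. The position limits were chosen with the values known, and no test was made on them.

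Carriers at single-base sites shared by genera were patchy. At all 17 single-base member sites carried in more than 1 genus, at least 1 of the genera included both carriers and non-carriers, as they did at 812 of 877 such sites of other genes (92.6%). Of the 11 Hylobates-only sites, 4 were carried by all 5 Hylobates (36.4%), against 21.1% of 465 others, and of the 14 Hoolock-only sites 13 were carried by all 3 Hoolock (92.9%), against 80.2% of 620 others. No test of these shares was made. The 4 Symphalangus-only sites were carried by both animals by construction, since every listed site has at least 2 carriers.

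Within Hoolock-only members, 7 of 14 elements began after position 450 and up to position 700 of the consensus (50%, exact 95% interval 23.0 to 77.0). They were those of RNF121, FBXL17, RNF222, FBXW4, RNF4, HERC3 and USP15. Of the 620 other Hoolock-only sites with a gene name, 134 began there (21.6%, exact 95% interval 18.4 to 25.1). This bin was chosen after the values were seen, and the difference was not tested.

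**Figure D2:**
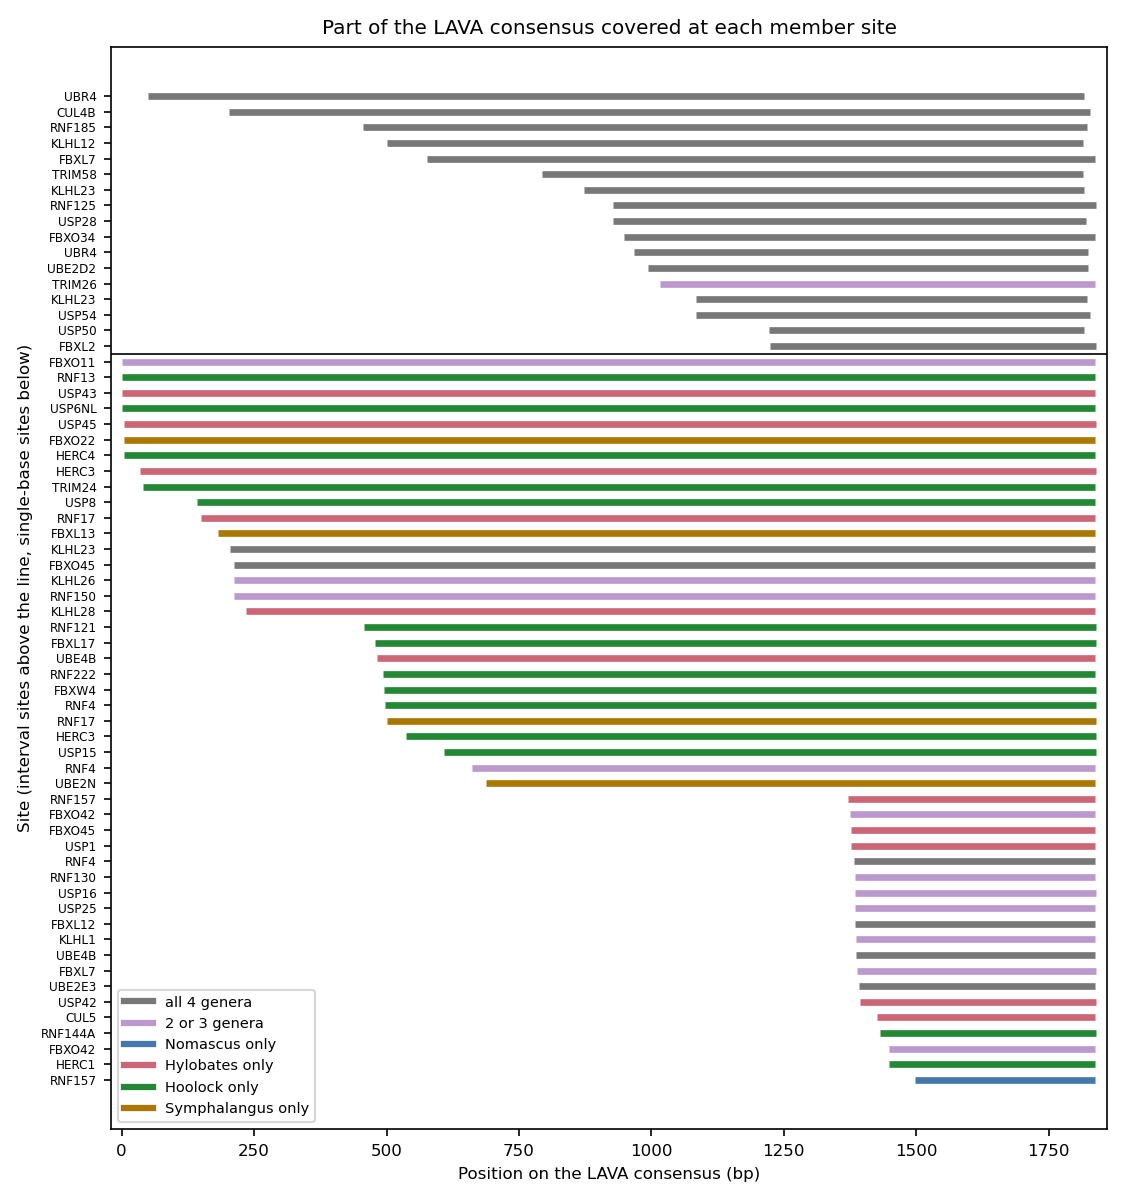
Part of the LAVA consensus (x axis, position in bp) covered by the element at each member site, with interval sites above the line and single-base sites below. Colour gives the genera with carriers. Among single-base sites 19 begin beyond position 1300, 28 begin at or before position 700 and none between.

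Interval elements could be longer than the stretch of consensus they match. The member elements exceeded that stretch at 11 of 17 sites (64.7%), against 511 of 610 (83.8%) of the other interval sites, with a median difference of 10 bp between element length and matched stretch, against 209.5 bp for those others. RNF125 had the largest difference, 1566 bp for a matched stretch of 911 bp, followed by RNF185 with 637 bp. UBR4, FBXO34, USP54 and KLHL23 had sites with differences of 414 to 462 bp. The interval elements of the members had a median length of 1239 bp (588 to 2477), against 1344 bp for the other interval sites. The single-base members had a median of 1338 bp (341 to 1837), against 1341 bp. No test of these medians was made.

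Against the 3079 other sites with a gene name, members were compared by class, orientation, form and genera carrying. Introns held 59 of 64 (92.2%, exact 95% interval 82.7 to 97.4), against 87.2%, and promoters 5 of 64 (7.81%), against 5.46%. The promoter sites were those of FBXL12, RNF222, TRIM26, USP42 and USP8. No member site was classed as terminator, untranslated region or exon. The count of 0 of 64 allows a share of up to 4.69% by the limit of 3 counts and of up to 5.60% by the exact 95% interval, and terminator sites made up 5.81% of the other sites.

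Intronic members lay in sense orientation at 21 of 59 sites (35.6%, exact 95% interval 23.6 to 49.1), against 38.5% of 2686. By form this was 5 of 16 interval sites (31.3%, against 25.4%) and 16 of 43 single-base sites (37.2%, against 41.6%). Interval sites made up 26.6% (16.3 to 39.1), against 19.8%. Members were carried in 1 genus at 46.9% (34.3 to 59.8), against 51.9%, and in all 4 genera at 34.4% (22.9 to 47.3), against 24.8%. Among single-base sites alone these shares were 63.8% against 64.5% and 12.8% against 9.44%. In 12 of the 13 shares plotted, the members' exact interval held the share of the other sites, and the terminator class was the exception. No test of these differences was made.

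**Figure D3:**
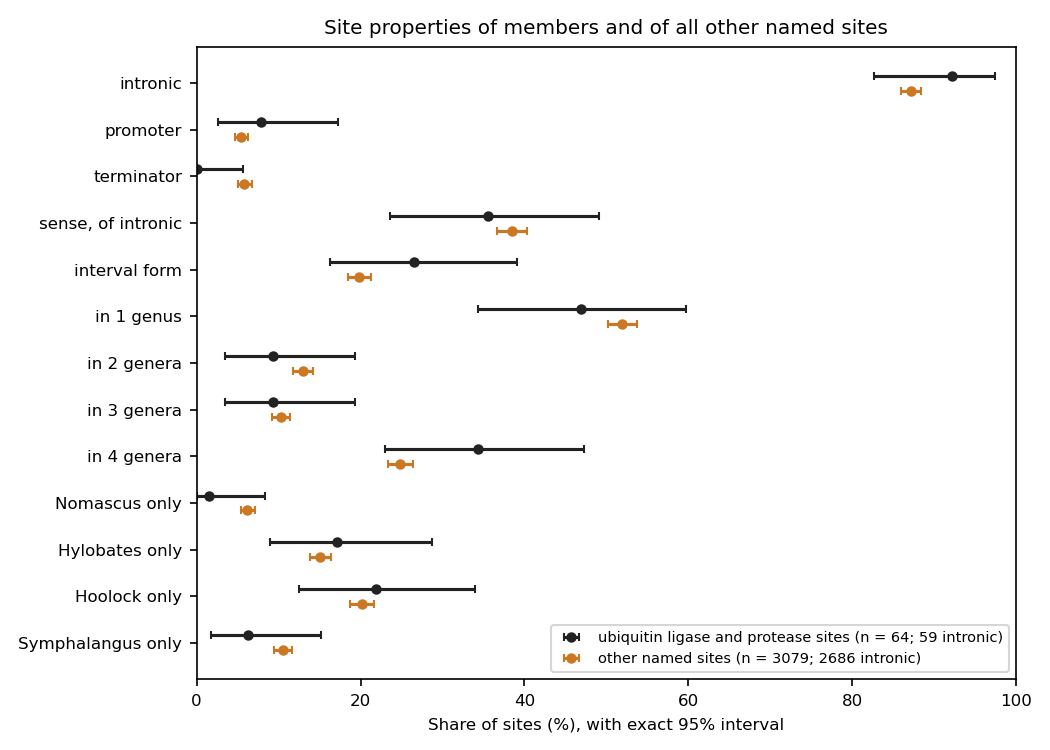
Shares of sites (x axis, percent, with exact 95% intervals that cover counting error only) for the 64 member sites and the 3079 other named sites. The intervals of the members hold the other sites' share in every row but terminator, where 0 of 64 stands beside 5.81%.

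The number of member sites per animal followed the genus. Nomascus animals carried 21.5 ± 1.85 (SD, n = 13), Symphalangus 28 in both animals, Hylobates 31.4 ± 4.34 (SD, n = 5) and Hoolock 37.3 ± 0.577 (SD, n = 3). The lowest, median and highest Nomascus animals carried 20, 21 and 26. The Hylobates animals carried 37 and 31 (H. moloch), 33 (H. muelleri), 31 (H. lar) and 25 (H. pileatus), and the Hoolock animals 37, 37 and 38. Hoolock and Hylobates ranges met at 37, and Nomascus overlapped with H. pileatus alone.

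The differences lay at single-base sites. Every Nomascus animal carried all 17 interval members and 3 to 9 single-base members, with N. leucogenys replicate 8 the highest. The other animals carried 16 interval members, or 17 in Hoolock replicate 2, and 9 to 22 single-base members. As a share of all named sites carried, Nomascus animals had 2.35% ± 0.166 in members (SD, n = 13). Hylobates had 2.46% ± 0.205 (SD, n = 5). Hoolock had 2.37% ± 0.0782 (SD, n = 3), and the Symphalangus animals 2.10% ± 0.00893 (SD, n = 2). The share in Symphalangus was within the Nomascus range of 2.10 to 2.63%. No p is given for these sums over the members.

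**Figure D4:**
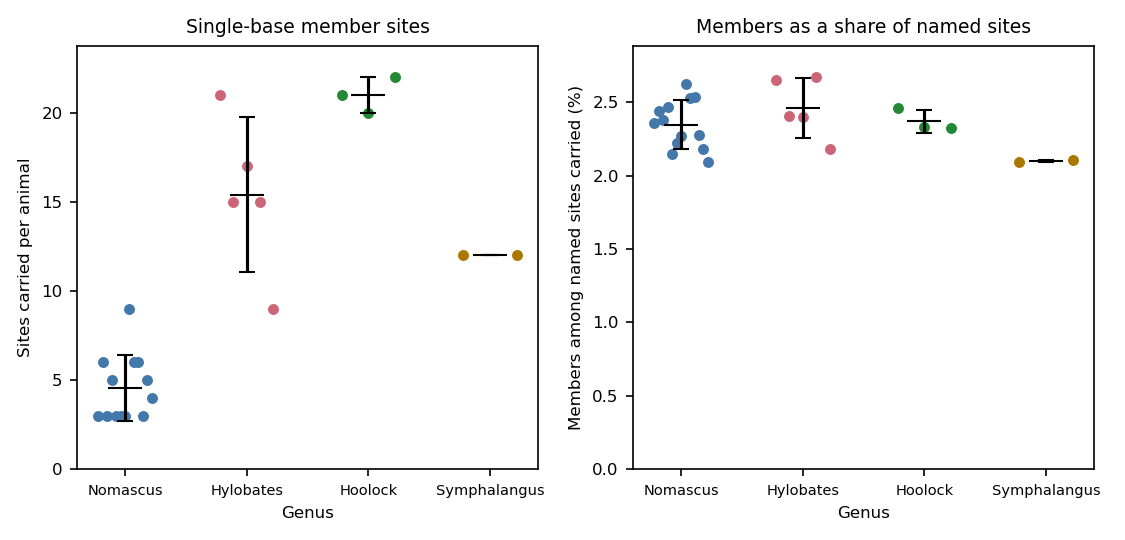
Single-base member sites carried per animal (left, number of sites) and member sites as a percentage of all named sites the animal carried (right). Points are animals, and bars give the mean and SD of each genus. Nomascus animals carry 3 to 9 single-base members and the other animals 9 to 22, whereas the percentages overlap between Nomascus, Hylobates and Hoolock.

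Ubiquitin pathway genes with other names were described from a list of 348 genes, of which 47 had 57 sites. Introns held 52 of these, 13 were interval sites and 13 were carried by all 23 animals. By the same tests, 0 were more frequent in Nomascus, against 3.01% of all sites, and 5 (8.77%) were less frequent, against 4.79%. In Hylobates 8 (14.0%) were more frequent, against 11.5% of all sites, in Hoolock 8 (14.0%), against 18.7%, and in Symphalangus 9 (15.8%), against 9.58%. None was less frequent in the last 3 genera, against 0.856%, 0.182% and 0.0364% of all sites in the same order. Of 16 anaphase-promoting complex genes, 3 had sites, and ANAPC1 and ANAPC5 each had 1 carried by all animals. Their second sites were carried by 4 Hylobates and 2 Hoolock in ANAPC1 and by 4 Hylobates alone in ANAPC5. ANAPC10 had a site carried by 3 Hylobates alone.

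Of 87 genes listed as other RING and U-box ligases, 15 had sites. BIRC6, a large inhibitor of apoptosis with ubiquitin ligase activity, had 1 site of 1837 bp carried by the 3 Hoolock alone and 1 of 1836 bp carried by the 5 Hylobates alone. Its pattern, with 1 site carried by all sampled animals of each of these genera alone, was also seen in HERC3. Outside the members, 98 sites with a gene name were carried by all Hylobates alone and 497 by all Hoolock alone. Genes with both kinds of site were not counted. KMT2C had 1 site in all animals and another in both Symphalangus alone.

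HECT ligases outside the name rule had sites in 2 of 18 genes, 3 sites in WWP2, of which 1 was carried by all animals, and 1 in HUWE1 carried by both Symphalangus. Genes listed as cullin partners and receptors had sites in 14 of 95, with 2 in IPP and 1 each in AMBRA1 and BTBD8. Listing does not show that a gene has the activity of its list. Genes listed as deubiquitinases of other names had sites in 2 of 40, EIF3H in Hoolock alone and MINDY2 in all animals. Of 52 proteasome genes 7 had sites, among them KIAA0368 with 2 carried by all animals. PSMB4 had 1 of the promoter class, carried by 5 Hylobates and 3 Hoolock, and PSMB9 1 of the terminator class. Genes of p97 and ubiquitin shuttles had sites in 3 of 28, with 2 in FAF2 and 1 each in FAF1 and UBXN4. Of 12 genes listed for E1 enzymes and ubiquitin supply, NAE1 alone had a site.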

How the data were processed

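Blood DNA of 23 gibbons was sheared for Illumina libraries, per the labels' protocols, and BWA is named in the submitters' processing notes. The insertion caller, its filters and the genome build were not given in the sources at hand. The deposited values are calls (1 carried, 0 not carried, NA missing), element lengths and consensus positions in bp. Animals were grouped by species and genus from the labels, with replicates numbered in order of deposit. The members, the gene lists and the tests were chosen with earlier results of these data known. Missing calls, 8 of 1472 (0.543%) at 3 member sites, counted as not carried. Carriers of each genus and of all other animals were compared at all 5490 sites with Fisher's exact test (SciPy 1.17.1), adjusted by Benjamini-Hochberg. Shares have exact Clopper-Pearson 95% intervals for counting error only. Named genes were those with 2 or more sites, promoter sites, the leading called sites, the longest sites carried by all animals, the longest and shortest elements, and up to 3 genes per pathway list. A gene that this rule names is not reported here. All other members were named in addition, so that each is accounted for. Names were looked up in RefSeq (51 of 52 found, all but KLHL23). No sequence is shown.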

Additional observations from a re-analysis of the deposited data

How the results depend on the processing

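Of the recomputed values 301 stayed, and 49 did not stay, within 1.5 times the count, within the exact interval or within 1 SD of the mean. Those that stayed include the counts of less frequent sites in Hoolock and Symphalangus, which were 0 in every setting. They also include settings that removed no member, so the tally is no measure of robustness. With Holm adjustment in place of Benjamini-Hochberg, 0 member sites were called in any comparison. Over 5490 sites no site could pass Holm in Hylobates, Hoolock or Symphalangus, whose smallest possible unadjusted p is 2.97e-05, 0.000565 and 0.00395, so that outcome was fixed by the number of animals there. With single-base sites only, TRIM26 drops out by construction, leaving 0 more frequent in Nomascus and 0 less frequent in Hylobates. In that setting 63.8% of members were carried in 1 genus and 12.8% in 4, and the means per animal were 4.54 in Nomascus, 15.4 in Hylobates, 21 in Hoolock and 12 in Symphalangus. At 540 bp and above, 0 sites were less frequent in Nomascus, 6 were more frequent in Hylobates, the median length was 1361 bp and the means per animal were 18.2, 24.2, 31 and 21.5 in the same order of genera. The called Nomascus sites of FBXL7, FBXO42 and KLHL1 are shorter than this limit and dropped out by construction. So did the Hylobates sites of FBXO45, RNF157 and USP42, whereas the 1688 bp site of RNF17 was tested and not called. With USP32 included the means were 39 in Hoolock and 32.5 in Symphalangus, and with missing calls treated as carried the Hoolock mean was 38. These shifts of means follow from the sites or calls each setting adds or removes.

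With each animal left out in turn, 2 to 9 sites were less frequent in Nomascus, 7 to 10 more frequent in Hylobates, 0 to 1 less frequent in Hylobates, 13 to 14 more frequent in Hoolock, 0 to 5 more frequent in Symphalangus and 1 more frequent in Nomascus. The values of 8 and 9 came without a Hoolock or Symphalangus animal. The lowest value in Symphalangus came when 1 of its 2 animals was left out, where too few were left for any site to pass. The value of 7 came without either H. moloch animal. With missing calls left out FBXO45 was not called in Hylobates. Leaving out names of pseudogenes or merging rows within 200 bp changed no member value, since no member was of either kind. No paired analysis was possible because the replicate numbers follow the order of deposit and pair nothing. Read depth per call is unknown, and the 2 and 3 animals of Symphalangus and Hoolock limit their tests.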
